A study of Mus musculus and Rattus norvegicus with 26 samples.

Results

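Introns that were listed in all 4 mouse lists of cytoplasmically intron-retaining transcripts (CIRTs) are described here. The study asked whether intronic sequence persists in the cytoplasm of neurons and of other cells, and it deposited 1 list of intronic contigs for each of 4 mouse and 2 rat cell sources. A member was chosen by its listing: the same RefSeq transcript with the same intron number had to appear in the lists of mouse dendrites, mouse somas, BAT cells and cardiomyocytes, with contigs of any length. Of the 46599 introns in at least 1 mouse list, 1723 (3.70%) met this rule, 4688 were in 3 lists, 11975 in 2 lists and 28213 in 1 list. The members belonged to 1366 transcripts of 1348 genes and held 14898 listed contigs.

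Mouse dendrites and somas came from C57BL/6 hippocampal neurons taken at embryonic day 18 and cultured. The dendrites were cut mechanically from the cells, whereas each soma was a single cell body with its nucleus. BAT cells were single cells of interscapular brown adipose tissue from CD-1 embryos at day 17.5, recognised by their morphology. Cardiomyocytes were single sorted ventricular cells from a C57BL/6 embryo at day 14.5 that carried the hemizygous Fucci mAG-hGem cell cycle reporter under the CMV promoter. Rat dendrites and somas came from Sprague-Dawley hippocampal neurons at day 18. In every group the RNA went through 3 rounds of aRNA amplification, which starts from a poly(T) primer with a T7 promoter. The labels name 3 mouse dendrite, 3 mouse soma, 6 BAT, 9 cardiomyocyte, 2 rat dendrite and 3 rat soma libraries. For brown fat and heart the study describes fewer single cells than the labels name, and the pooled libraries cannot be listed from the sources used here. Each list pools libraries, so there is no replicate and no test between cell sources, and intervals cover counting error over introns, contigs or genes only.

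Introns are normally removed from the pre-mRNA in the nucleus, and a transcript that keeps part of an intron is usually held back or degraded. In neurons, some transcripts with intronic sequence are known to reach the dendrites, where the retained sequence can guide localisation or change the encoded protein. Intron length differs widely between genes, with very long introns in genes of adhesion, synapse and muscle proteins such as dystrophin, and short introns in genes of ribosomal and mitochondrial proteins.

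The lists held 19477 introns for mouse dendrites, 10568 for mouse somas, 30018 for BAT cells and 13056 for cardiomyocytes, with 3086576, 1855447, 17858440 and 12201042 reads over listed introns. These sums are not the depth of the libraries, so levels were compared between lists only by their rank within a list, and raw reads are given as the values of each list. As a check of the cell labels, 9 of 12 cardiomyocyte markers hosted a listed intron in cardiomyocytes (401036 reads) and 8 of 10 brown fat markers did in BAT cells (156693 reads). Of 12 neuronal markers, 11 hosted a listed intron in mouse somas (23334 reads) and 10 in mouse dendrites (4765 reads), while Map2 was in none of these lists. The BAT list also held 9 neuronal markers (22506 reads) and 7 cardiomyocyte markers (50762 reads), and the cardiomyocyte list held 3 neuronal markers (4720 reads) and 3 brown fat markers (3505 reads). The mouse dendrite list held 6 cardiomyocyte markers (2327 reads) and 5 brown fat markers (681 reads), and the mouse soma list held 4 cardiomyocyte markers (281 reads) and 1 brown fat marker (2 reads). The share of other cell types in the listing of the members was not tested. No brown fat or cardiomyocyte marker was a member gene.

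Sequence that was covered in all 4 lists is shown for the members that the positions and ranks below turn on, in windows that hold no annotated exon. Positions are on mm9 (NCBIM37), the sequences are read 5′ to 3′ on the strand of the gene from that assembly, and capitals mark bases that lay in contigs of all 4 lists, up to or from the edge of the common stretch.
Pitpna intron 3, chr11:75412750-75412929 (+ strand): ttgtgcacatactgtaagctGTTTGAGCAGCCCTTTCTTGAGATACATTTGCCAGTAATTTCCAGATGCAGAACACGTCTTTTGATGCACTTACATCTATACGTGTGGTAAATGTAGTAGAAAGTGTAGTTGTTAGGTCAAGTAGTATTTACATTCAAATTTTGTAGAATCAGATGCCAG
Wdr70 intron 3, chr15:8041651-8041830 (- strand): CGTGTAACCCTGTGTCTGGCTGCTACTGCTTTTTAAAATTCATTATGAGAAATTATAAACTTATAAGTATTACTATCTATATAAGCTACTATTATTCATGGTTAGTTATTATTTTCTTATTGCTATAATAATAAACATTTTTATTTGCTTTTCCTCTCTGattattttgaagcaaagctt
Large intron 6, chr8:75516846-75517025 (- strand): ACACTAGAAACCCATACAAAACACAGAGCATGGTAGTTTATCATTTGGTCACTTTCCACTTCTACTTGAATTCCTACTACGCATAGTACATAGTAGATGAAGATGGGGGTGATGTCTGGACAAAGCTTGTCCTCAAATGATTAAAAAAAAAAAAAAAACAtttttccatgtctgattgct
Tcf12 intron 3, chr9:71909606-71909785 (- strand): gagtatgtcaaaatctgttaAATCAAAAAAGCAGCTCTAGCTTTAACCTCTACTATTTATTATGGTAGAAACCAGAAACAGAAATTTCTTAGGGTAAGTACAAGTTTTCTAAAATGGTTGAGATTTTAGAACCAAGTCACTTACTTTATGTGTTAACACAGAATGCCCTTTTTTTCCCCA
Qk intron 3, chr17:10449844-10450023 (- strand): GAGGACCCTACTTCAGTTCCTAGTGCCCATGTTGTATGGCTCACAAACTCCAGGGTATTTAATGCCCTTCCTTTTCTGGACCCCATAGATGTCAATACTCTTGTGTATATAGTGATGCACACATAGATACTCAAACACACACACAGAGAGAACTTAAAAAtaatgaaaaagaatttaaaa
Cacnb2 intron 2, chr2:14594558-14594737 (+ strand): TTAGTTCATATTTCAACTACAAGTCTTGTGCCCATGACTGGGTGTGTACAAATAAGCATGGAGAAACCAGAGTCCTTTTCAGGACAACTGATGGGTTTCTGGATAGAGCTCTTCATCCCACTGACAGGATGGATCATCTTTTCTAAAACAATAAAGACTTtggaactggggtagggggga
Myo3a intron 30, chr2:22446054-22446233 (+ strand): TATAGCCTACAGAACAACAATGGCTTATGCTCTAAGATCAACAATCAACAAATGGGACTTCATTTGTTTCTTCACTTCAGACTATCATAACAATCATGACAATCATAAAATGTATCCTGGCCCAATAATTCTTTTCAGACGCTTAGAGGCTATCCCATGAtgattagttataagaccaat

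Each edge of a stretch is a place where a contig of at least 1 list ended. In the window of Cacna2d1, which encodes the alpha-2-delta subunit of voltage-gated calcium channels, capitals mark a run of 13 A that began 27 bases after the 3′ edge of the common stretch. That edge was the end of the mouse soma contig, whereas the contigs of BAT cells and cardiomyocytes ended within the run and the contig of mouse dendrites ended just after it. A poly(T) primer can anneal to such a run in RNA, and whether it did so here was not tested.
Cacna2d1 intron 23, chr5:15852999-15853091 (+ strand): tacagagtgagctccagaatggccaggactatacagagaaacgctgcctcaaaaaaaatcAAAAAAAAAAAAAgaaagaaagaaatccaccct

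The annotation of NCBIM37 held an intron of the same number, strand and place for 1702 members (98.8%), and 1694 of these (99.5%) began with GT and ended with AG. Member introns were long. Their median length was 10451.5 nt (95% interval 9332 to 11766), against 6036 nt for introns in 3 lists, 3356 nt in 2 lists and 2064 nt in 1 list. In its own analysis the study kept only contigs of up to 400 nt for somas, BAT cells and cardiomyocytes, which are whole cells, and with that limit the median length of the introns in all 4 lists was 20117 nt. The longest member intron had 470851 nt and the shortest 77 nt. Introns above 50000 nt made up 14.6% of the members, 3.74% of introns in 3 lists and 0.0721% of introns in 1 list. First introns were 15.8% of the members, 11.3% of introns in 3 lists and 5.98% of introns in 1 list. In transcripts with at least 5 introns, 55.1% of the members (52.6 to 57.7) lay in the 5′ part. The middle intron of an odd number was counted as 5′, so the share is not to be read against an even split. The interval overlapped that of introns in 3 lists (53.5%, 52.0 to 55.0), and introns in 1 list had 46.9% (46.3 to 47.5).

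Member introns carried more reads than other listed introns in each mouse list. The median reads per member were 65 in mouse dendrites (57 to 74), 38 in mouse somas (32 to 42), 240 in BAT cells (204 to 268) and 170 in cardiomyocytes (144 to 192). In cardiomyocytes the limit of 400 nt in whole cells lowered the median to 61 reads, and members with at least 10 reads in each list had medians of 107, 105.5, 586.5 and 495 reads. Over all introns of the lists the medians were 24, 22, 29 and 53 reads. Introns in 3 lists, which the rule just left out, had medians of 39, 24, 76 and 98 reads. Listing itself depends on reads, so this order is a description of how the members were chosen and was given no test. Members made up 8.85% of the introns and 17.9% of the reads in mouse dendrites, 16.3% and 23.9% in mouse somas, 5.74% and 13.9% in BAT cells, and 13.2% and 28.2% in cardiomyocytes. Not every member was abundant: 993 of them (57.6%, 55.3 to 59.9) had under 10 reads in at least 1 list. The lowest count was 2 reads in mouse dendrites and 1 read in each of the other lists. Within each list, however, members had under 10 reads less often than all introns of the list. The shares were 22.1% against 34.7% in mouse dendrites and 28.8% against 37.0% in mouse somas. They were 11.8% against 32.3% in BAT cells and 20.2% against 29.5% in cardiomyocytes.

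**Figure D1:**
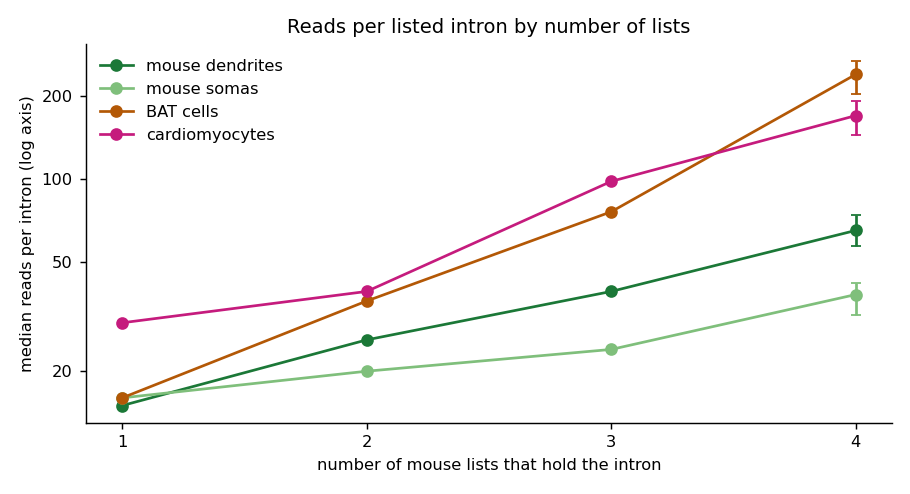
Median reads per listed intron (log axis) for introns found in 1, 2, 3 or 4 mouse lists, with 1 line per list; error bars at 4 lists are 95% intervals of the median. The medians at 4 lists are 65, 38, 240 and 170 reads for mouse dendrites, mouse somas, BAT cells and cardiomyocytes, each above the value at 1 list.

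A high rank in 1 list went with only a slightly higher rank in another. Across the 1723 members, Spearman's rank correlation of the reads between 2 lists lay between 0.0887 for mouse dendrites with cardiomyocytes and 0.254 for BAT cells with cardiomyocytes. Over all introns that 2 lists shared, the correlation was weak as well. It lay between -0.0239 for mouse dendrites with mouse somas, where the members had 0.112, and 0.248 for BAT cells with cardiomyocytes. The points share their libraries within a list, and introns of a gene share its transcript. For each member the percentile of its reads was taken within each list, where 100 is the most abundant intron. The distance between the highest and the lowest of the 4 percentiles had a median of 53.7 points, was over 50 points in 932 members (54.1%) and was under 10 points in 45 members. The highest of the 4 percentiles was in BAT cells for 652 members (37.8%), in mouse dendrites for 429, in cardiomyocytes for 354 and in mouse somas for 288. A percentile also depends on the other introns of its list, and the lists held from 10568 to 30018 introns. The median percentile of the members was 77.5 in BAT cells, 66.6 in mouse dendrites, 62.9 in cardiomyocytes and 59.0 in mouse somas. In all, 433 members (25.1%) were above the median of every list, and 22 members (1.28%) were in the top 10% of every list.

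The intron with the highest lowest rank was intron 3 of Pitpna, the phosphatidylinositol transfer protein alpha. It had 7586 reads in mouse dendrites, 3217 in mouse somas, 33358 in BAT cells and 129219 in cardiomyocytes, at or above the 99.3 percentile in each list. Intron 6 of Large, a glycosyltransferase that modifies dystroglycan, had 1096, 3749, 5669 and 22807 reads in the same order. Intron 3 of Tcf12, a basic helix-loop-helix transcription factor, had 1770, 1016, 4132 and 7240 reads. In these 3 introns the percentiles differed least between lists, by 0.647, 2.42 and 2.03 points.

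Next in this order was intron 10 of Fbxo3, an F-box protein of ubiquitin ligases, with 735 reads in mouse dendrites, 1933 in mouse somas, 14734 in BAT cells and 7495 in cardiomyocytes. Intron 3 of Erbb4, the neuregulin receptor kinase, had 733, 755, 2508 and 15402 reads, and intron 3 of Zfp938, a zinc finger protein, had 3026, 2064, 2149 and 6830 reads. In Zfp938 the stretch common to all lists had 94 nt, the whole contig in mouse dendrites and BAT cells, and 85 nt of it were an inner exon of another Zfp938 transcript, annotated as subject to nonsense-mediated decay. Zfp938 ranked highest in mouse dendrites, at the 99.4 percentile, and at the 97.1 percentile in cardiomyocytes. Intron 2 of Cacnb2, an auxiliary subunit of voltage-gated calcium channels, had 3529 reads in mouse dendrites, 1279 in mouse somas, 2135 in BAT cells and 108413 in cardiomyocytes. Intron 7 of Ctnna1 had 778, 4334, 2118 and 44260 reads and intron 11 of Ctnna3 had 652, 4208, 16684 and 15056 reads. Both genes encode alpha-catenins, which tie cadherins to actin at cell contacts.

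The last 3 of these 12 introns were intron 3 of Wdr70, intron 1 of Dmd and intron 3 of Qk. Wdr70, a WD repeat protein, had 554 reads in mouse dendrites, 1236 in mouse somas, 7989 in BAT cells and 4722 in cardiomyocytes. Dmd, which encodes dystrophin, had 1673, 565, 12396 and 163979 reads, the most of any member in cardiomyocytes. Qk, the RNA-binding protein Quaking, had 1899, 2107, 1574 and 16273 reads, with the lowest percentile, 93.5, in BAT cells. By percentile, cardiomyocytes were the highest list for 7 of these 12 introns, mouse dendrites for 2, BAT cells for 2 and mouse somas for 1.

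**Figure D2:**
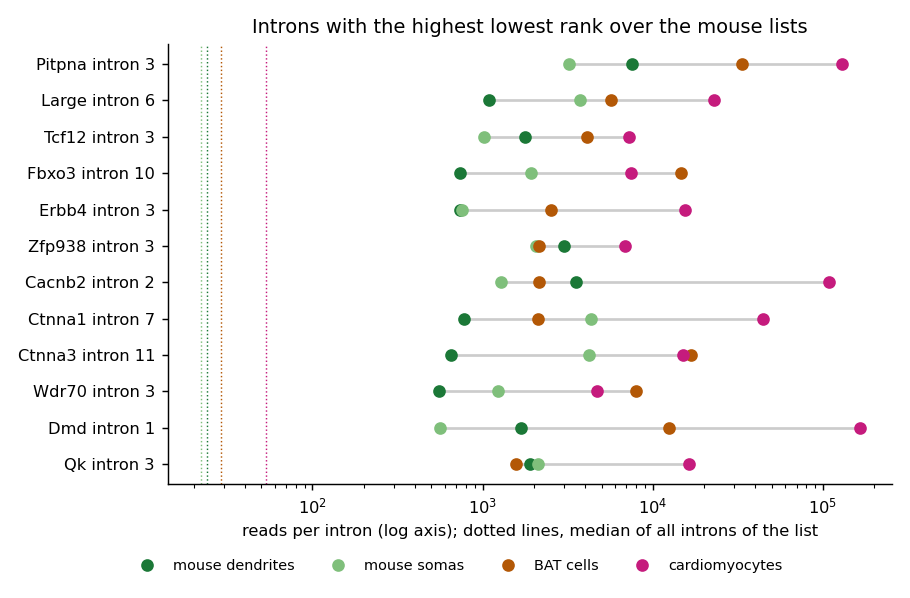
Reads per intron (log axis) in each mouse list for the 12 members with the highest lowest rank; each point is the pooled count of 1 list and dotted lines are the medians over all introns of each list. Every point lies above the median of its list, and the counts run from 554 reads for Wdr70 in mouse dendrites to 163979 reads for Dmd in cardiomyocytes.

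Other members were named because they were among the 3 with the most reads in a list. Intron 2 of Gramd3 led mouse dendrites with 10291 reads and had 78 in mouse somas, 2 in BAT cells and 48 in cardiomyocytes. Intron 3 of Dpp6, a subunit of A-type potassium channels, had 8973 reads in mouse dendrites, 32 in mouse somas, 7 in BAT cells and 2 in cardiomyocytes. Intron 2 of Commd1 had 9815, 170, 1028 and 1669 reads. Among the top members of mouse somas, intron 5 of Gria4, an AMPA receptor subunit, had 24913 reads in somas and 750, 382 and 2 in mouse dendrites, BAT cells and cardiomyocytes. Dlc1 intron 2, in a GTPase-activating protein, had 14140 reads in somas and 105, 57 and 113 in the other 3. Mtss1 intron 3 had 11298 reads in somas, 14063 in BAT cells, 18820 in cardiomyocytes and 178 in mouse dendrites. Its percentiles were 99.95, 99.2, 99.5 and 82.8 in the same order.

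In BAT cells the top member was intron 2 of Cdk8, a Mediator kinase, with 63000 reads there and 48, 200 and 332 in mouse dendrites, mouse somas and cardiomyocytes. GENCODE annotates 82 nt of its common stretch of 619 nt as a miRNA, AC113316.1, on the same strand. Which RNA gave the reads of this intron was not tested. Intron 7 of Sfi1 had 40108 reads in BAT cells and 5017, 689 and 220 in the other 3, and intron 8 of Fbxo24 had 37461 reads in BAT cells, 35 and 28 in mouse dendrites and somas, and 14810 in cardiomyocytes. In cardiomyocytes intron 8 of Trdn, which encodes triadin of the cardiac calcium release complex, had 144061 reads. It had 409, 80 and 458 in mouse dendrites, mouse somas and BAT cells. Its percentile was 99.99 in cardiomyocytes and 91.7, 71.2 and 84.1 in the other lists, in the same order. The percentiles differed most for intron 1 of Gab3, an adaptor protein, with 22622 reads in BAT cells and 4, 2 and 1 in mouse dendrites, mouse somas and cardiomyocytes. Intron 4 of Gpr158 had 19347 reads in BAT cells, 189 and 45 in mouse dendrites and somas and 1 in cardiomyocytes. Wdr59 intron 1 had 3003 reads in mouse dendrites and 14, 357 and 1 in mouse somas, BAT cells and cardiomyocytes. For members such as these, the listing in the lowest list rests on 1 or 2 reads.

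Most member genes, 1073 of 1348, had 1 member intron, 205 had 2 and 70 had 3 or more. Dmd had the most with 9, introns 1, 7, 41, 43, 47, 51, 53, 54 and 57. Stag1, a cohesin subunit, had 6. Camk2d, Erbb4 and Sfi1 had 5 each, where Camk2d encodes the delta isoform of calcium/calmodulin kinase II. Dmd introns other than the first ranged from 2 to 571 reads in mouse dendrites, from 2 to 558 in mouse somas, from 37 to 2875 in BAT cells and from 2 to 28045 in cardiomyocytes. The Dmd introns thus differed widely within 1 transcript. In Stag1 the top intron also changed with the list: intron 22 had 756 reads in mouse dendrites and 5535 in cardiomyocytes, intron 12 had 93 in mouse somas and 1404 in BAT cells.

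Listing of the same intron did not mean the same place in it. Of the 1723 members, 475 (27.6%, 25.5 to 29.7) had at least 1 base that was covered by a contig in every list. With the limit of 400 nt in whole cells 725 introns were in all 4 lists, and 13.5% of them had a common base. With all contigs widened by 500 nt the share of members was 41.4%, and among members with 1 contig in each list it was 58.4%. In 471 members (27.3%) the best covered base lay in contigs of 3 lists, in 662 (38.4%) of 2 lists, and in 115 (6.67%, 5.59 to 7.95) no base was shared between any lists. Mouse dendrites and somas shared a base in 1033 members (59.95%, 57.6 to 62.2), where the share over all 5049 introns of both lists was 58.0% and over introns in these 2 lists alone 64.4% (870 of 1350). Dendrites and BAT cells shared a base in 991 members (57.5%, 55.2 to 59.8), against 44.0% of all introns in both lists, and dendrites and cardiomyocytes in 862 members (50.0%, 47.7 to 52.4), against 44.9%. Somas and BAT cells shared a base in 975 members (56.6%, 54.2 to 58.9), against 52.4%. For somas with cardiomyocytes (921 members, 53.5%, 51.1 to 55.8) and BAT cells with cardiomyocytes (1041 members, 60.4%, 58.1 to 62.7) the members were below the shares over all introns in both lists, 59.8% and 65.3%.

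**Figure D3:**
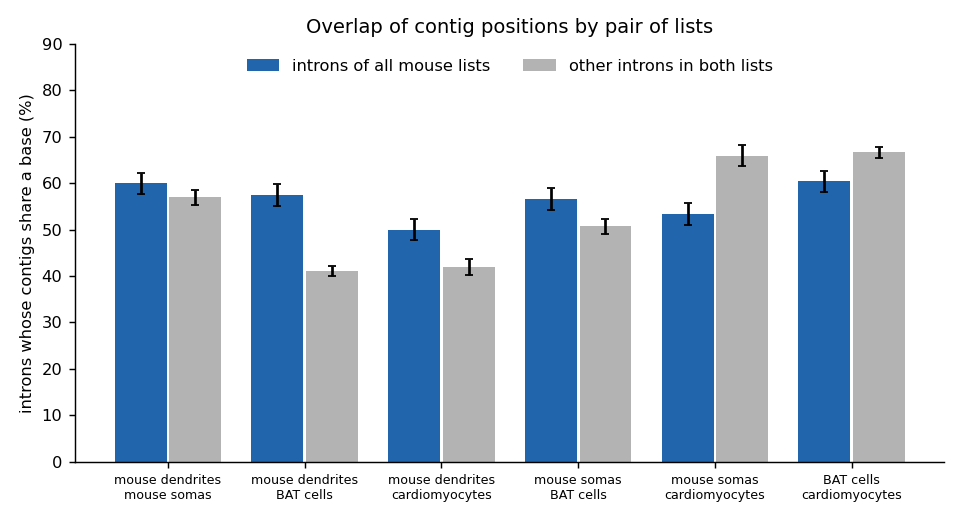
Share of introns whose contigs share at least 1 base between 2 lists, for the 1723 introns of all mouse lists (blue) and for the other introns in both lists (grey), with 95% Wilson intervals. The members range from 50.0% to 60.4%. They are above the other introns in the 4 pairs with mouse dendrites or with somas and BAT cells, and below them in the other 2 pairs. For dendrites and somas the intervals overlap (57.6 to 62.2 and 55.3 to 58.6). Introns found only in the 2 lists of a pair are not drawn apart. Their share was 64.4% for dendrites and somas, 39.9% for dendrites and BAT cells and 41.0% for dendrites and cardiomyocytes. It was 52.9% for somas and BAT cells, 67.0% for somas and cardiomyocytes and 72.6% for BAT cells and cardiomyocytes.

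The common base depended on the length of the intron. In the 257 matched members of up to 2000 nt, 210 (81.7%, 76.5 to 86.0) had a base covered in all lists, in those above 2000 and up to 10000 nt 180 of 579 (31.1%, 27.5 to 35.0), in those above 10000 and up to 50000 nt 61 of 618 (9.87%, 7.76 to 12.5) and above 50000 nt 19 of 248 (7.66%, 4.96 to 11.7). The covered part of the intron moved in the same way. In members of up to 2000 nt the contigs covered a median of 99.4% of the intron in BAT cells, 92.3% in cardiomyocytes, 45.3% in mouse somas and 45.1% in mouse dendrites, whereas above 50000 nt the medians were 2.75%, 0.872%, 0.900% and 2.32%. Members with a common base had a median length of 2353.5 nt and the other members 16579.5 nt. Their median reads were 43 against 78 in mouse dendrites, 31 against 40 in mouse somas, 287 against 208 in BAT cells and 218 against 146 in cardiomyocytes.

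**Figure D4:**
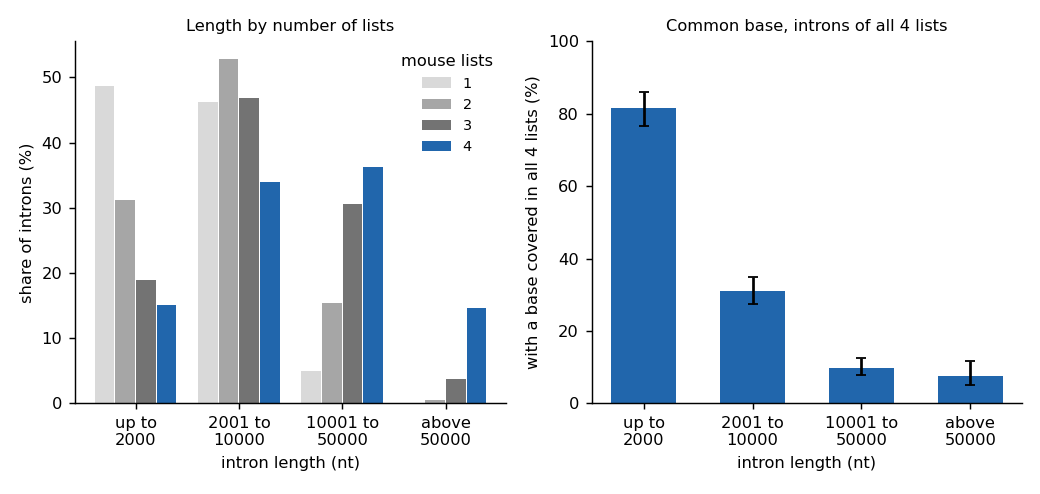
Left, share of introns in each length class (nt) for introns found in 1 to 4 mouse lists; right, share of the members of each length class with a base covered in all 4 lists, with 95% Wilson intervals. Introns above 50000 nt are 14.6% of the members and 0.0721% of introns in 1 list, and the common base goes from 81.7% of the shortest to 7.66% of the longest members.

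The longest stretch covered in all 4 lists had a median of 214 nt (quartiles 131 and 327.5 nt), reached 500 nt in 53 members and 1000 nt in 7. It covered at least 90% of the intron in 48 members. In the 260 stretches of introns above 2000 nt, 89 (34.2%, 28.7 to 40.2) were centred in the first of 3 equal parts of the intron, 88 in the middle and 83 in the last. The longest was 3408 nt in intron 30 of Myo3a, an unconventional myosin. It was followed by 1196 nt in intron 6 of 2310008H04Rik, 1186 nt in intron 3 of Pitpna, 1142 nt in intron 23 of Cacna2d1 and 1137 nt in intron 3 of Wdr70. Of the stretch in 2310008H04Rik, 476 nt were the exon of Gm10121, a gene annotated as protein coding on the opposite strand. Intron 30 of Myo3a had 1481 reads in mouse dendrites, 467 in mouse somas, 25841 in BAT cells and 52869 in cardiomyocytes, whereas Cacna2d1 had 139, 17, 698 and 318. Pitpna held 1 contig in each list, and these shared the stretch at chr11:75412770-75413955. Dmd intron 1 held 12, 6, 26 and 33 contigs in mouse dendrites, mouse somas, BAT cells and cardiomyocytes, with no base common to the lists.

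Some contigs lay on annotated exons of transcripts other than the listed one. At least 1 contig shared a base with an exon in 412 members (23.9%, 22.0 to 26.0), against 16.2% of introns in 3 lists and 8.16% in 1 list. Per contig the shares were closer, 8.22% for members and 7.51% for introns in 1 list, and members had 8.65 contigs each against 1.10. The exon belonged to another transcript of the same gene in 301 members, to another gene on the opposite strand in 83 and to another gene on the same strand in 48. The libraries do not keep the strand, so reads of an intron and of a gene opposite to it cannot be told apart. Of the 475 common stretches, 147 (30.9%) touched an exon, and 93 of these an exon of the same gene. That exon was the last of its transcript in 65 and came from a transcript annotated as retained intron in 53. The stretch of 1006 nt in intron 10 of Fbxo3 lay wholly in last exons of other Fbxo3 transcripts. In intron 3 of Slc25a4, the ADP/ATP carrier of mitochondria, the stretch of 776 nt ran over the whole listed intron, and 427 nt of it were the last exon of a transcript annotated as retained intron.

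Annotated pseudogenes, mostly processed copies of mRNAs, were met more often in members than in other listed introns. A contig shared a base with a pseudogene exon in 77 members (4.47%, 3.59 to 5.55), in 34 introns of 3 lists (0.726%), 28 of 2 lists (0.234%) and 19 of 1 list (0.0674%, 0.0432 to 0.105). Per contig the share was 1.64% in members (1.45 to 1.86), 0.332% in 3 lists, 0.133% in 2 lists and 0.0611% in 1 list (0.0391 to 0.0954). The 77 members had medians of 117 reads in mouse dendrites, 50 in mouse somas, 423 in BAT cells and 222 in cardiomyocytes, against 64, 37, 229 and 162.5 in the other members. A common base was present in 55 of them (71.4%, 60.5 to 80.3) and in 420 of the other 1646 (25.5%). The median intron lengths were 10294 and 10509 nt, and the shares were not compared within classes of length. They held 7.58% of the members' reads in mouse dendrites, 5.42% in mouse somas, 7.97% in BAT cells and 11.8% in cardiomyocytes. These are all reads of the introns, and the reads on the pseudogenes themselves were not counted. Of the 406409 such reads in cardiomyocytes, 129219 were in Pitpna intron 3, 108413 in Cacnb2 intron 2 and 52869 in Myo3a intron 30.

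The common stretch itself lay on a pseudogene in 40 of 475 members (8.42%, 6.25 to 11.3) and in 14 of the 53 with at least 500 nt. By symbol, 7 of the 40 were copies of ribosomal protein genes, such as Rpl15-ps2 in intron 3 of Tcf12, Rpl30-ps3 in Fnbp4 intron 2 and Rpl14-ps1 in Trpm4 intron 6. Fnbp4 and Trpm4 were named after their values were seen. In intron 3 of Pitpna the pseudogene Gm12338 took 192 nt of the stretch, on the opposite strand. In intron 2 of Cacnb2 it was Gm13312 (79 nt) and in intron 8 of Fbxo24 it was Gm16089 (336 nt). The stretch of Myo3a held Gm13339, Gm13340 and Gm13341 (510, 1545 and 672 nt on the opposite strand), annotated as transcribed unprocessed pseudogenes. Of the 31-mers taken every 10 bases along that stretch, 46.4% were also in the mitochondrial genome of mm9.

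Repeated sequence was counted in the same way in all regions. Of the 460 common stretches long enough for a 31-mer, 253 (55.0%, 50.4 to 59.5) had only 31-mers that occur once in mm9, against 50.4% of the members' contigs and 62.9% of contigs of introns in 1 list. The 253 included those of Fbxo3, Zfp938, Large, Qk and Slc25a4. In 119 of the 460 (25.9%, 22.1 to 30.1) over 50% of the 31-mers occurred more than once, against 15.8% of the members' contigs (15.2 to 16.4) and 9.41% of contigs of introns in 1 list (9.09 to 9.74). In Pitpna 31.9% of the 31-mers were repeated, with at most 8 copies, and in Tcf12 43.3% with at most 18 copies. The authors kept uniquely mapped reads, and the part of near-identical copies in the reads of these introns was not tested.

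A run of at least 10 A on the strand of the gene, within 300 nt downstream of a contig, was found in 50.0% of the members (47.6 to 52.3), 34.1% of introns in 3 lists, 18.7% in 2 lists and 7.77% in 1 list. Members have more contigs, and per contig the share was 11.3% (10.8 to 11.8), as in 3 lists (11.3%), and 7.12% in 1 list (6.84 to 7.41). The same run upstream of a contig was found for 2.62% of the members' contigs. A run of T upstream, which is an A run on the other strand, was found for 9.85% of the members' contigs (9.39 to 10.3) and 9.08% of contigs in 1 list (8.77 to 9.41), and in 42.5% of the members. Downstream of the common stretch an A run lay in 92 of 475 (19.4%, 16.1 to 23.2) and upstream in 8 (1.68%), and a T run lay upstream in 47 (9.89%). The hexamer AATAAA, the poly(A) signal of mRNAs, was in the last 60 bases of 70 of 443 common stretches of at least 60 nt (15.8%, 12.7 to 19.5), of 10.9% of the members' contigs (10.4 to 11.4) and of 8.42% of contigs of introns in 1 list (8.12 to 8.74). Its reverse complement TTTATT was in 5.87%, 5.61% and 5.83% of the same windows. A match of letters is a description and no measured site.

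Hairpins of RefSeq miRNAs were matched by exact sequence in 8 members (0.470%, 0.238 to 0.925), in 14 introns of 3 lists (0.304%, 0.181 to 0.510) and in 31 of 27743 introns in 1 list (0.112%). Contigs covered the RefSeq hairpin in 1 of them, intron 4 of Rabac1, which holds Mir7046 and was named after its values were seen. This intron of 77 nt had 9 reads in mouse dendrites, 54 in mouse somas, 75 in BAT cells and 37 in cardiomyocytes, and all 66 nt of the hairpin lay in contigs of every list. Its mature miRNAs are shown as in RefSeq with the seed, bases 2 to 8, in capitals.
mmu-miR-7046-5p: uGUAGGGUgaggcugggagccagg
mmu-miR-7046-3p: uGAACCACccaucccccuacag

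By function, 439 of the 1348 member genes (32.6%) fell into 14 gene families that were set by symbol. The share of a family's listed genes that were member genes was 10.8% (10.3 to 11.4) over all 12467 genes of any mouse list. It was 29.3% (23.1 to 36.5) for mitochondrial respiration, ribosome and import, with 51 of 174 genes, and 26.0% (19.1 to 34.2) for chromatin modifiers and remodellers, with 33 of 127. For kinases and phosphatases it was 16.3% (48 of 294), for adhesion, matrix and guidance 16.9% (42 of 248), for translation 18.7% (31 of 166), for ion channels and neurotransmitter receptors 13.3% (23 of 173), for zinc finger factors 9.76% (24 of 246) and for solute carriers 8.18% (22 of 269). The order changed when only genes in all 4 mouse lists were counted, of which 43.9% were member genes: the share was 72.9% for the mitochondrial genes and 60.8% for translation, but 45.8% for chromatin modifiers and 63.2% for zinc finger factors. No enrichment was tested.

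Among the mitochondrial genes, intron 1 of Ndufa1, a subunit of respiratory complex I, had 382 reads in mouse dendrites, 212 in mouse somas, 4644 in BAT cells and 2005 in cardiomyocytes. Intron 4 of Atp5g3, a subunit of ATP synthase, had 309, 670, 451 and 2932 reads over an intron of 476 nt that was covered but for 1 base at its 5′ end in every list. Both introns were short, and both had a common stretch. Among the chromatin genes, intron 2 of Jarid2, of the Polycomb repressive complex, had 1175, 357, 29290 and 1748 reads over 91463 nt, and intron 2 of Hdac9, a histone deacetylase, had 358, 571, 1115 and 22713 reads over 90904 nt. Jarid2 had no common base and Hdac9 had a stretch of 382 nt. Among kinases and phosphatases, intron 2 of Ppp3ca, the calcineurin catalytic subunit, had 1090, 445, 7886 and 4818 reads, and among ion channels intron 2 of Kcnj3, an inwardly rectifying potassium channel, had 2011, 3370, 466 and 25765.

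The rat lists were not used to choose the members. Of the 1348 member genes, 608 (45.1%, 42.5 to 47.8) had a listed intron in rat dendrites and 535 (39.7%, 37.1 to 42.3) in rat somas, against 28.7% and 21.7% of all 12467 genes of any mouse list. Both rat lists held 432 member genes (32.0%) and neither held 637. The share grew with the number of mouse lists that held the gene, from 15.3% for 1 list over 23.8% and 32.7% to 43.5% for 4 lists in rat dendrites, and from 9.96% over 16.5% and 24.7% to 36.4% in rat somas. The 1724 genes that were in all 4 mouse lists without a member intron gave 42.2% (39.9 to 44.6) in rat dendrites and 33.8% (31.6 to 36.1) in rat somas. In dendrites their interval overlapped that of the member genes, and in somas it lay below. Listing in both rat lists was found for 24.5% of them (22.5 to 26.6), below the 32.0% of the member genes (29.6 to 34.6).

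**Figure D5:**
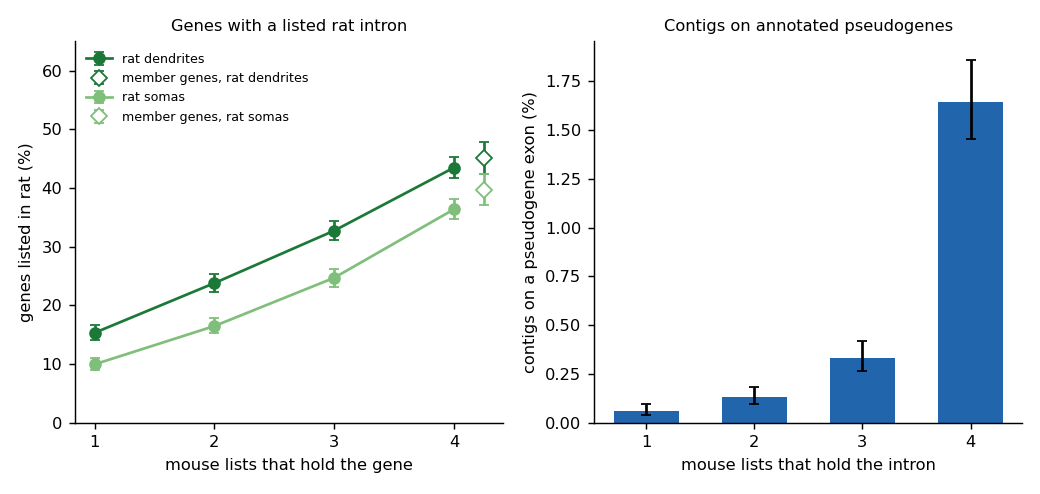
Left, share of genes with a listed rat intron by the number of mouse lists that hold the gene (circles) and for the member genes (open diamonds); right, share of contigs that share a base with a pseudogene exon by the number of mouse lists that hold the intron. Bars are 95% Wilson intervals. Member genes reach 45.1% in rat dendrites and 39.7% in rat somas, and their contigs 1.64% on pseudogenes against 0.0611% in 1 list.

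Where the gene was listed in rat dendrites, the same intron number was listed for 282 of 805 members (35.0%, 31.8 to 38.4), and in rat somas for 248 of 732 (33.9%, 30.5 to 37.4). For introns in 3 mouse lists the shares were 26.7% and 22.9%, in 2 lists 20.1% and 17.3%, and in 1 list 13.5% (12.9 to 14.2) and 11.3% (10.6 to 12.04). Numbers were compared between transcripts of 2 species, and the rat positions were not aligned. In both rat lists the same number was found for 168 members.

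Among these, intron 3 of Slc25a4 had 2693 reads in mouse dendrites, 7737 in mouse somas, 1361 in BAT cells and 31609 in cardiomyocytes, and 1847 and 1218 in rat dendrites and somas. Intron 3 of Qk had 42 reads in rat dendrites and 5330 in rat somas. Intron 1 of Pde4b, a cyclic AMP phosphodiesterase, had 3757, 231, 3785 and 22364 reads in the mouse lists and 237 and 4652 in rat dendrites and somas. Intron 6 of App, the amyloid precursor protein, had 309, 196, 535 and 651 reads in mouse and 37 and 3522 in rat. Ranks within the rat lists were not computed, so rat dendrites and somas are not compared here. Intron 9 of Mettl3, the catalytic subunit of the m6A methyltransferase, had 3813 reads in rat dendrites and 2 in rat somas, and 420, 865, 212 and 538 in the mouse lists. The mouse stretch of this intron, 209 nt long, shared 205 nt with the last exon of Tox4 on the opposite strand. Intron 4 of Rexo2, an RNA exonuclease, had 690, 1172, 270 and 167 reads in mouse and 2132 and 634 in rat. Also among the 10 members with the most rat reads were Letm2 intron 4 (22, 18, 280 and 251 in mouse, 660 and 7633 in rat), Csnk1g1 intron 11 (393, 5, 13210 and 50 in mouse, 246 and 5911 in rat) and Arhgap26 intron 20 (41, 114, 1233 and 56 in mouse, 60 and 3701 in rat).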

How the data were processed

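RNA of dendrites and single cells was amplified by the aRNA method in 26 libraries. The authors aligned reads to mm9 or rn4, used only reads that mapped once and lay in introns, filtered introns against gene predictions, poly(A) sites and noncoding RNAs by the annotations they used (some members still held a miRNA hairpin or snoRNA of RefSeq or GENCODE), joined reads within 500 nt into contigs and pooled the libraries of a group. The deposited counts are raw reads per intron, without normalization, repeated on each contig; they were taken once per transcript and intron. Which BAT and cardiomyocyte libraries entered is not given in the sources used here.

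Members and gene lists were chosen with earlier results of these data known. Starts were shifted to count from 1, and the listed introns lack the annotated base of the highest coordinate. Introns and exons came from GENCODE vM1 on NCBIM37; the smallest intron of the same number, strand and gene around all contigs was taken. Pseudogenes were exons of another gene with a pseudogene or retrotransposed type or a -ps symbol. 31-mers were taken every 10 bases and counted on both strands of mm9. Shares carry 95% Wilson intervals and medians order-statistic intervals, for counting error only. No test was run. Genes were named by rank over the lists, reads, common stretch, number of members, spread of percentiles, rat reads and family. Python 3.11.15, pandas 2.3.3, scipy 1.17.1 and pysam 0.24.0 were used; the code was tested on simulated intervals. Some genes that these rules would name are not reported here.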

Additional observations from a re-analysis of the deposited data

How the results depend on the processing

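Contigs of at most 400 nt in somas, BAT cells and cardiomyocytes, the limit of the study's own analysis, left 725 introns in all 4 lists, 13.5% with a common base, a median length of 20117 nt, median reads of 91 in mouse dendrites, 27 in mouse somas and 61 in cardiomyocytes, and 34.0% of member genes in rat somas. With that limit in every list there were 619 introns, 15.5%, 23648.5 nt, medians of 96, 26 and 70 reads, and 40.6% and 35.0% in rat dendrites and somas. At least 10 reads in each list left 730 introns, 35.6%, 12207.5 nt, medians of 107, 105.5, 586.5 and 495 reads, and 48.0% and 44.1% in the rat lists. The common base was found in 41.4% of members with contigs widened by 500 nt and in 58.4% of those with 1 contig in each list. Rat introns of at least 10 reads gave 34.6% and 30.2% of member genes. The A run was found in 61.5% of members at 8 A, 39.8% at 12 A and 53.9% within 500 nt. Of 53 values under an alternative, 22 stayed close to the main value. For 9 of these, joining transcripts had left the members unchanged, so they say nothing about stability. The other 13 include 6 without the members on a pseudogene exon, an alternative chosen after seeing the data. The cause of the moves was not tested beyond the smaller sets that the limits leave. Leaving out a replicate was not possible, since each list pools its libraries. No paired analysis was possible because the pooled lists carry no replicate numbers and no test was run. Intervals cover counting error only, since PCR reads are not independent molecules.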
